A study of Mus musculus and Rattus norvegicus with 6 samples.

Results

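Genes of serine synthesis and of the ATF4 response were followed in the livers of leptin-deficient mice and rats, with or without an injection of leptin. The set held 8 genes: the serine synthesis enzymes Phgdh, Psat1 and Psph, the asparagine synthetase Asns, the pseudokinase Trib3, and the transcription factors Atf4, Atf5 and Ddit3. They were chosen by symbol, with earlier results of these data known, and every probe set annotated to them was taken. This gave 17 probe sets with a single symbol among 45037 on the mouse arrays and 10 among 31042 on the rat arrays. All 8 had a value in both species, among 18193 named genes in mice and 14217 in rats. Another 2 mouse probe sets listed Phgdh together with a second gene, had signals of at most 70.8 and were not used for Phgdh.

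Each group was 1 array of liver RNA from 20-week-old males, taken 6 h after an intraperitoneal injection. The mice were Lepob/Lepob given recombinant murine leptin, Lepob/Lepob given saline, and WT given saline, all on a C57/BL6J background. The rats were Lepmkyo/Lepmkyo given the same murine leptin, Lepmkyo/Lepmkyo given saline, and WT given saline, all F344/NSlc. The rat labels are not uniform on the mutant genotype: their source field reads Lepob, whereas the descriptions and the design text read Lepmkyo, which is used here. WT animals given leptin were not analysed here, and the labels do not say whether an array held 1 animal or a pool. With 1 array per group there was no replicate spread, no test and no p-value: "higher" and "lower" compare 2 arrays. A gene was called at 2-fold. A signal under the floor, which was the median of all values of the platform (82.7 in mice, 97.0 in rats), was raised to it, and a ratio against such an array is given as "at least". The number of arrays limits the precision. As a measure of disagreement between probe sets only, log2 ratios of different probe sets of the same gene had a pooled SD. It was 0.43 for mutant saline over WT saline and 0.24 for mutant leptin over mutant saline, in both species. Errors shared by all probe sets of an array do not enter this SD.

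Serine is made from the glycolytic intermediate 3-phosphoglycerate, which PHGDH oxidises, PSAT1 transaminates and PSPH dephosphorylates. ATF4 is a transcription factor whose translation increases when the initiation factor eIF2 is phosphorylated by kinases that sense amino acid shortage, unfolded protein, heme deficiency or viral RNA. It raises transcription of genes for amino acid synthesis and uptake, among them ASNS and the serine enzymes, and of the stress genes DDIT3 (CHOP), ATF5 and TRIB3. In liver, TRIB3 is known as a protein that binds the insulin-regulated kinase AKT, and fasting raises its expression in mice.

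The promoters of Asns, Trib3 and Psat1 are shown because these genes had large ratios of saline-injected mutant over WT rats, described further on, and matches to the letters searched. ATF4 binds, with C/EBP partners, an element whose core was searched as TGATGNAA on both strands of each mouse promoter, taken from 250 bases before to 50 bases after the start (RefSeq, GRCm38.p6). The core was found in 1304 of 32851 promoters (3.97%) and in 2 of the 10 promoters of the 8 genes. In Asns it lies 23 to 16 bases before the start, on the strand of the gene. In Trib3 it lies 15 to 22 bases after the start, on the opposite strand, so that the printed strand shows its reverse complement. The longest run of letters that promoters of 2 of the 8 genes share, TGGTGCAATCCC, was then looked up. It is 12 bases long, the next longest shared run of this set being 11, and joins Psat1, 136 to 125 bases before the start, and Trib3, 33 to 22 bases before it. It is in 4 of the 32851 promoters (0.0122%) and overlaps no TGATGNAA match in either gene. The first 8 letters of this run differ from the searched core only at the third letter, G in place of A. Since it was picked from the sequences, this share is a description. Capitals mark the matches, and each sequence reads 5′ to 3′ on the minus strand, which is the strand of all 3 genes.
Asns, core, chr6:7693210-7693262: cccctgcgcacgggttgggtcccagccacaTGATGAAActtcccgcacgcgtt
Trib3, core, chr2:152344030-152344055: agctcaggtTTACATCAgccgggcgg
Trib3, shared run, chr2:152344061-152344123: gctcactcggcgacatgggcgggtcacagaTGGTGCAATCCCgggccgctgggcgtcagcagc
Psat1, shared run, chr19:15925154-15925225: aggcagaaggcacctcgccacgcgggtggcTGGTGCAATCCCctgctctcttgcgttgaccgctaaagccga
These are mouse sequences, and rat promoters were not used here. In the other promoters of the 8 genes neither run of letters is in the window. A match is no evidence of binding, and nothing is read from its absence.

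All 4 amino acid synthesis enzymes of the set were higher in the livers of saline-injected Lepmkyo/Lepmkyo rats than in WT rats. Of the 8 genes, 5 were at least 2-fold higher (Psat1, Phgdh, Psph, Asns and Trib3) and 0 were 2-fold lower, and all 8 ratios were above 0. Of the 9817 genes compared, 2.99% reached 2-fold upward and 1.45% downward. Since the 8 genes were chosen with earlier results of these data known, their count beside these shares is a description. With the floor at percentile 75, 2 of the 8 (Psat1 and Trib3) were still 2-fold higher, while Psph and Asns were at log2 ratios of 0.25 and 0.92 and Phgdh was under that floor on both arrays. At 1.5-fold the counts were 5 and 0 of the 8, against 10.2% and 5.92% of all genes. The median log2 ratio was 1.20 over the 8 genes and 0.04 over all genes. In liver pieces, fewer cells of a type and less RNA per cell cannot be told apart.

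Psat1, the transaminase of the pathway, had signals of 1834.5 in leptin-injected mutant rats and 1946.1 in saline-injected mutant rats, against 136.4 in WT rats. Both mutant arrays were thus far above the WT array, which was close to the floor. The ratio of mutant saline to WT saline was 14.3-fold (log2 3.83), with rank 2 from the highest among 8911 genes that reached the floor on both arrays. Phgdh, the first enzyme of the pathway, had signals of 481.9 and 240.8 in leptin- and saline-injected mutant rats, against 5.8 in WT rats. Only the WT signal was under the floor, so Phgdh was at least 2.48-fold higher in saline-injected mutant rats than in WT rats (log2 1.31, and 3.10 with the floor at percentile 25). Psph, the last enzyme, had signals of 578.5 and 538.5 in leptin- and saline-injected mutant rats, against 253.0 in WT rats. Its ratio of mutant saline to WT saline was 2.13-fold (log2 1.09), the smallest of the pathway.

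Asns, which makes asparagine from aspartate and glutamine, had signals of 1092.7 in leptin-injected mutant rats and 857.4 in saline-injected mutant rats, against 117.1 in WT rats. It was 7.32-fold higher in saline-injected mutant rats than in WT rats (log2 2.87), with rank 4 from the highest among the same 8911 genes. The WT signal lay just above the floor, and with the floor at percentile 75 the log2 ratio was 0.92. Trib3 was measured by 3 rat probe sets, and all 3 gave higher signals on the mutant arrays. On the brightest of them the signals were 857.5 and 1122.5 in leptin- and saline-injected mutant rats, against 373.0 in WT rats, a ratio of mutant saline to WT saline of 3.01-fold. The other 2 probe sets gave 2.69-fold and 2.78-fold.

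The transcription factors of the set differed less in rats. Atf4 had signals of 10819.5 and 9890.7 in leptin- and saline-injected mutant rats, against 7471.1 in WT rats, and was 1.32-fold higher in the saline-injected mutant. Atf5, an ATF4 relative, had signals of 7691.5 and 8233.9 in the mutant rats, against 7358.7 in WT rats, 1.12-fold higher with saline. Ddit3, a C/EBP relative induced by endoplasmic reticulum stress, had signals of 909.3 and 810.7 in the mutant rats, against 678.6 in WT rats, 1.19-fold higher with saline. None of these 3 log2 ratios exceeded the probe set SD of 0.43, and arrays measure RNA, not the translation by which ATF4 is mainly controlled.

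**Figure D1:**
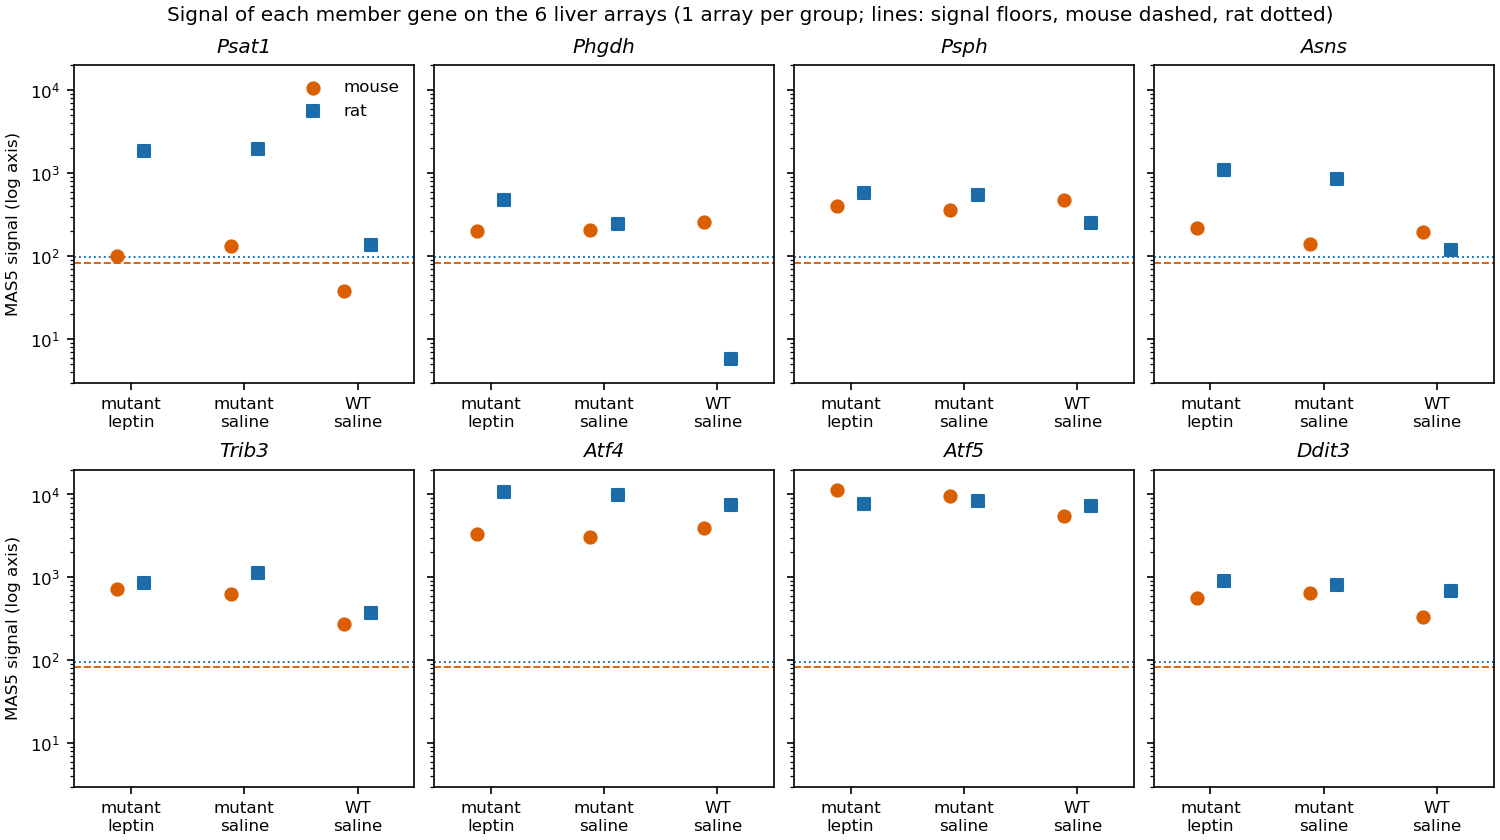
MAS5 signal (log axis) of the 8 genes on each liver array, with mice as circles and rats as squares, 1 array per point, ordered as mutant leptin, mutant saline and WT saline; the dashed line is the mouse floor (82.7) and the dotted line the rat floor (97.0). In rats Psat1, Phgdh and Asns are high on both mutant arrays (240.8 to 1946.1) and low on the WT array (5.8 to 136.4), and levels of different genes or species come from different probes and are not to be compared.

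The mouse arrays gave another pattern. In saline-injected Lepob/Lepob mice, Trib3 alone of the 8 genes was at least 2-fold higher than in WT mice and 0 were 2-fold lower. Of the 11956 genes compared, 4.46% reached 2-fold upward and 3.71% downward, so that the higher genes made up 54.6% of those called. At 1.5-fold the counts were 4 and 0 of the 8 (Psat1, Trib3, Atf5 and Ddit3), against 12.3% and 12.6% of all genes. With quantile normalization this share was 65.3% and with arrays centred on their median 80.4%, the latter with a shift of the median log2 ratio of all genes to 0.22, against -0.03 as deposited. The 8 genes had a median log2 ratio of 0.18, with 4 above 0 and 4 below.

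Trib3 had mouse signals of 730.9 in leptin-injected mutants and 627.3 in saline-injected mutants, against 276.8 in WT mice, and was 2.27-fold higher with saline than in WT mice. Its second mouse probe set gave 2.80-fold, from signals of 700.0 against 249.6. Atf5 had signals of 11479.8 and 9621.3 in leptin- and saline-injected mutant mice, against 5573.1 in WT mice, and was 1.73-fold higher with saline. Trib3 and Atf5 were thus higher on both mutant arrays than on the WT array. For Ddit3 the probe sets disagreed. On the brighter one the signals were 571.5 and 656.6 in leptin- and saline-injected mutant mice, against 335.7 in WT mice, 1.96-fold higher with saline. On the other they were 187.6 and 145.1 in the mutants, against 183.7 in WT mice, a log2 ratio of -0.34, so no direction is given for Ddit3 in mice.

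The serine enzymes and Asns gave low signals in mice, mostly within a few-fold of the floor. Psat1 had signals of 99.4 in leptin-injected mutants and 131.9 in saline-injected mutants, against 37.6 in WT mice, where it was under the floor. It was at least 1.59-fold higher with saline than in WT mice, and its second probe set gave at least 1.46-fold. Phgdh had signals of 201.8 and 206.7 in leptin- and saline-injected mutant mice, against 255.6 in WT mice, a ratio of mutant saline to WT saline of -0.31 on the log2 scale. All mouse probe sets used for Phgdh are of the kind marked as able to bind several transcripts, and 2 of the 4 were under the floor on all arrays. Psph had signals of 401.1 and 358.9 in the mutants, against 470.3 in WT mice, a log2 ratio of -0.39 with saline. Asns had signals of 221.0 and 139.0 in the mutants, against 195.1 in WT mice, a log2 ratio of -0.49 with saline and of at least 1.25-fold lower on its second probe set. Atf4 had signals of 3349.1 and 3052.9 in the mutants, against 3948.3 in WT mice, log2 ratios with saline of -0.37 on this probe set and -0.63 on a dimmer one. With arrays centred on their median, the log2 ratios of Phgdh, Psph, Asns and Atf4 were -0.05, -0.13, -0.23 and -0.12, still below 0 but closer to it.

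**Figure D2:**
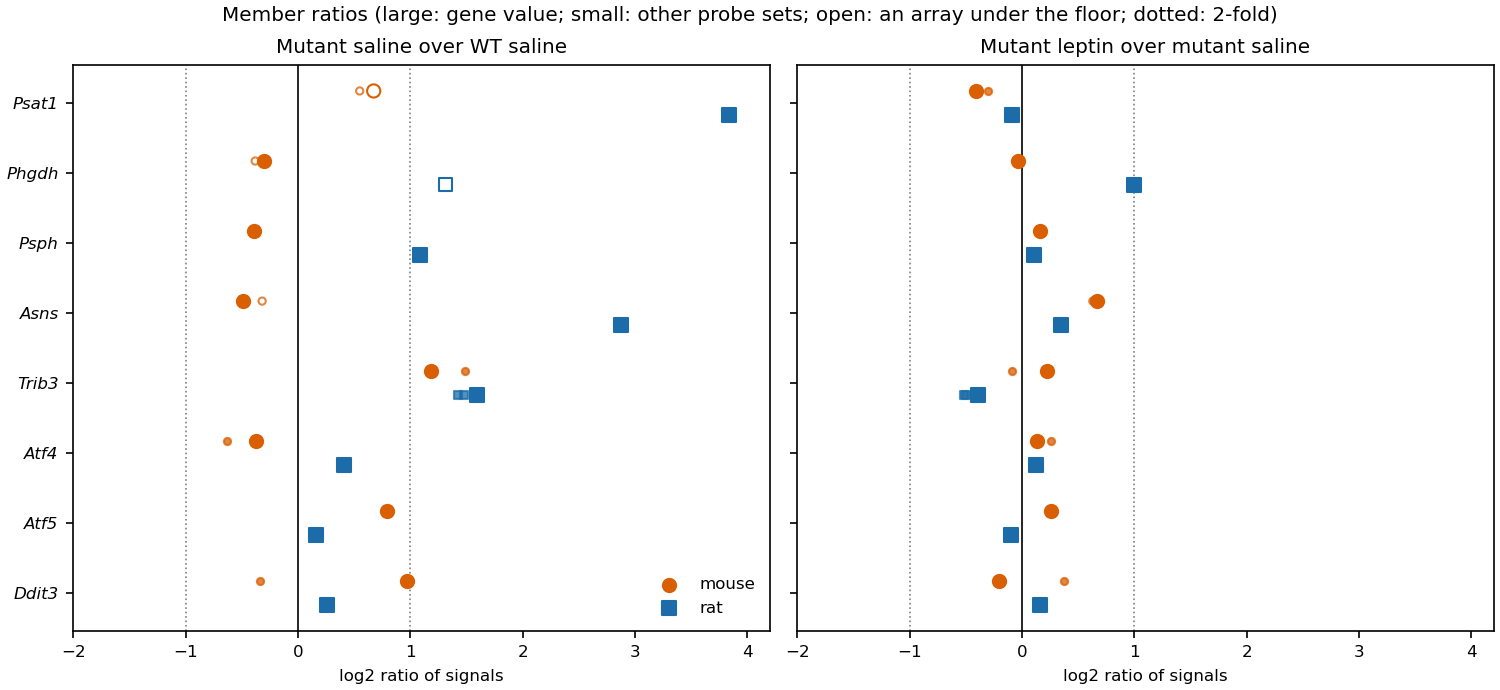
Log2 ratios of mutant saline over WT saline (left) and of mutant leptin over mutant saline (right), with mice as circles and rats as squares; large symbols are the probe set that stands for the gene, small ones its other probe sets, open ones ratios with an array under the floor, and dotted lines mark 2-fold. In rats Psat1 (3.83) and Asns (2.87) lie far right of 2-fold in the left panel, while in mice Trib3 (1.18) is the only large symbol past it, and in the right panel Phgdh in rats (1.00) alone reaches it.

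With the floor used, Trib3 was 2-fold higher in both species. With a floor at percentile 25 the log2 ratio of Psat1 in mice was 1.81, against 0.67 here, and Psat1 was then 2-fold higher in both as well. Phgdh, Psph, Asns and Atf4 had ratios of opposite sign, though the mouse ratios of Phgdh, Psph and Atf4 were within the probe set SD of 0.43. The mouse and rat arrays hold different probes, and with 1 array per group the difference between species was not tested.

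Leptin, compared with saline in mutant animals, left most of the 8 genes close to their saline signals. This comparison uses the saline mutant array that also enters the genotype ratios, so their values are given side by side and not related to each other. In rats, 1 of the 8 genes was 2-fold higher and 0 were 2-fold lower, where 0.237% of 9705 genes reached 2-fold upward and 0.278% downward (2.12% and 2.59% at 1.5-fold, with 1 and 0 of the 8). As deposited, 46.0% of the genes called at 2-fold were higher, and 59.2% with median-centred arrays. That gene was Phgdh, at 481.9 in leptin-injected and 240.8 in saline-injected rats, which lies exactly on the threshold (log2 1.00). Asns was 1.27-fold higher, at 1092.7 against 857.4. Psat1 was 1.06-fold lower and Psph 1.07-fold higher with leptin. All 3 Trib3 probe sets were lower with leptin in rats, by 1.31-fold, 1.43-fold and 1.41-fold. Atf4 was 1.09-fold higher, Atf5 1.07-fold lower and Ddit3 1.12-fold higher, all within the probe set SD of 0.24 on the log2 scale.

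In mice, 0 of the 8 genes were 2-fold higher or lower with leptin, where 0.182% of 11536 genes reached 2-fold upward and 0.243% downward (2.18% and 2.21% at 1.5-fold, with 1 and 0 of the 8). Asns had the largest ratio of the set, 1.59-fold higher with leptin at 221.0 against 139.0, and its second probe set, at 128.1 with leptin and 71.2 with saline, gave at least 1.55-fold. Asns was thus higher with leptin on all probe sets of both species. Psat1 was 1.33-fold and 1.23-fold lower with leptin on its 2 mouse probe sets, at signals near the floor. The mouse probe sets of Trib3 had log2 ratios of 0.22 and -0.09, and those of Ddit3 -0.20 and 0.37, so neither gene had a direction there. Atf5 was 1.19-fold higher, Psph 1.12-fold higher, Atf4 1.10-fold higher and Phgdh 1.02-fold lower with leptin.

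Leptin-injected mutants were also set against WT animals, sharing arrays with both comparisons above. In rats the same 5 genes reached 2-fold upward and 0 downward (2.83% and 1.61% of 9742 genes), and the counts were again 5 and 0 at 1.5-fold (10.3% and 6.85%). Psat1 was 13.4-fold, Asns 9.33-fold, Phgdh at least 4.97-fold, Trib3 2.30-fold and Psph 2.29-fold higher in the leptin-injected rats. The other Trib3 probe sets were just under the threshold, at 1.88-fold and 1.96-fold. In mice 2 of the 8 genes reached 2-fold upward and 0 downward (3.98% and 3.46% of 11958 genes, the higher ones being 53.5% of those called as deposited and 76.5% with median-centred arrays). At 1.5-fold the counts were 3 and 0 (11.4% and 11.7% of all genes). The 2 genes were Trib3, at 2.64-fold on both probe sets, and Atf5, at 2.06-fold (log2 0.98 with quantile normalization, just under the threshold). In both species Trib3 was thus at least 2-fold above WT on its brightest probe set 6 h after leptin.

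Around these genes, other enzymes of serine, glycine and one-carbon metabolism were taken as a list. Of 6 measured in rats, 0 were 2-fold apart between saline-injected mutant and WT, and 1 of 8 was 2-fold higher with the floor at percentile 25. Mthfd2, the mitochondrial folate enzyme and an ATF4 target, was at least 1.81-fold higher at 175.1 against 5.6, and the folate enzyme Aldh1l1 1.79-fold higher. The hydroxymethyltransferases Shmt1 and Shmt2, which convert serine to glycine, were 1.12-fold and 1.23-fold lower. In mice, of 7 measured, Mthfd1l was 2.96-fold higher and Mthfd2 2.83-fold lower, for which the other probe set gave a log2 ratio of 0.49.

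Among enzymes that consume serine or glycine, 1 of 14 in rats was 2-fold lower and 0 were higher. It was Sds, the serine dehydratase that degrades serine to pyruvate, with signals of 526.4 and 743.6 in leptin- and saline-injected mutant rats, against 5526.5 in WT rats. Both mutant arrays were far below WT, and the ratio of mutant saline to WT saline was 7.43-fold lower. Sds was not among the mouse genes with a value. Cbs, which joins serine to homocysteine, was 1.90-fold lower in saline-injected mutant rats and 2.80-fold lower in saline-injected mutant mice than in WT animals. It was the only one of 14 such enzymes that was 2-fold apart in mice.

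Some other genes known as ATF4 targets were higher in the mutants, and their list medians were small. In rats, 7 of 31 measured reached 2-fold upward and 0 downward in mutant saline relative to WT saline, beside 2.99% and 1.45% of all genes. This list, too, was chosen with earlier results of these data known, so its counts beside such shares are a description. The list median was a log2 ratio of 0.16 (0.07 with each gene as the median of its probe sets) and that of all genes 0.04. The transcription factor Atf3 was 4.0-fold, the stress protein Nupr1 3.15-fold, the hepatokine Fgf21 3.05-fold and the cytokine Gdf15 at least 2.95-fold higher. The other 3 were the glutathione-degrading enzyme Chac1, the mTORC1 inhibitor Ddit4 and the translation repressor Eif4ebp1, at 2.28-fold, 2.17-fold and 2.07-fold. In mice, 4 of 32 reached 2-fold upward and 2 downward, beside 4.46% and 3.71% of all genes. The mouse median of 0.16 was -0.01 with each gene as the median of its probe sets, with 14 of 29 above 0, and 0.42 with median-centred arrays. The lipoprotein receptor Vldlr was at least 14.1-fold on its brightest probe set (others at log2 ratios of 0.46 to 1.94), Fgf21 5.81-fold, the alanine transaminase Gpt2 3.81-fold and Atf3 at least 2.22-fold higher. Mthfd2 and the unfolded protein sensor Ern1 were lower, Ern1 by 2.40-fold with other probe sets at -0.07 and -1.63 on the log2 scale. Of 30 such genes measured in both species, Atf3 and Fgf21 were at least 2-fold higher in both.

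**Figure D3:**
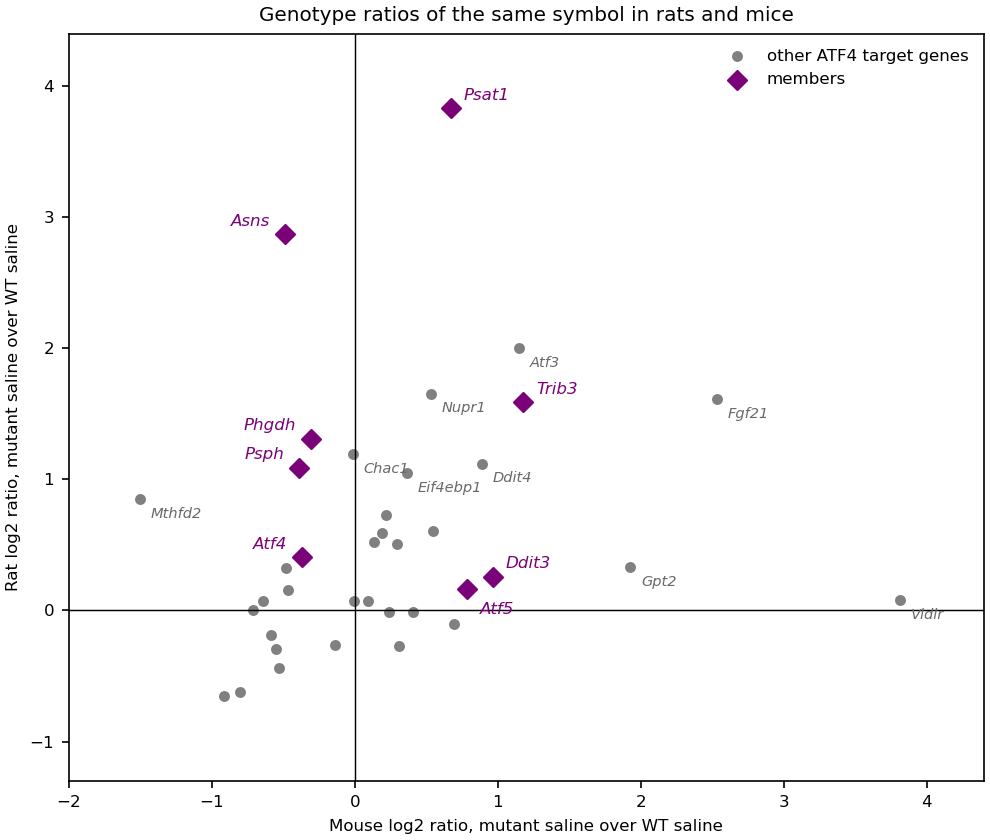
Log2 ratio of mutant saline over WT saline in rats (vertical) against mice (horizontal) for the same symbol, with diamonds for the 8 genes and grey points for 30 other genes known as ATF4 targets, 1 ratio per species and gene. Psat1 and Asns stand at 3.83 and 2.87 in rats but at 0.67 and -0.49 in mice, and Vldlr at 0.08 in rats but 3.82 in mice. Ratios with an array under the floor are bounds and are not marked, among them mouse Psat1 and mouse Vldlr. Mouse Psat1 was at 1.81 with a floor at percentile 25, and other mouse probe sets of Vldlr were at 0.46 to 1.94. Trib3, Atf3 and Fgf21 are past 1 in both.

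After leptin, 0 of 31 of these targets were 2-fold higher in rats and 1 was lower, with 10 ratios above 0 and 21 below and a median of -0.10. The lower one was Atf3, at 312.9 in leptin-injected and 629.4 in saline-injected rats (2.01-fold, just under the threshold with quantile normalization or median centring). Chac1 was 1.81-fold lower, at 414.1 against 748.0. In mice 0 of 32 were 2-fold apart after leptin. The saline-injected mutant arrays also enter the genotype ratios, so the leptin and genotype ratios of these targets are not related to each other.

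The cytosolic aminoacyl-tRNA synthetases, which load amino acids onto tRNA and include many ATF4 targets, had a median log2 ratio of 0.27 in saline-injected mutant over WT rats, with 14 of 19 above 0 and 0 at 2-fold. Cars was 1.90-fold and Eprs 1.57-fold higher, but other Eprs probe sets were at log2 ratios of -2.19 and 0.01, and the median of the list was 0.06 when each gene was taken as the median of its probe sets. In mice the median was -0.22, with 13 of 19 below 0 and Tars, Cars and Farsa 2.42-fold, 2.12-fold and 2.04-fold lower, Farsa with another probe set at 0.35. Median centring turned the mouse median to 0.04. With leptin against saline the rat median was 0.19, with 15 of 19 above 0 and 0 at 2-fold, led by Eprs at 1.49-fold and Yars at 1.47-fold. Other Eprs probe sets were at log2 ratios of 0.04 and 0.49 in that comparison.

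**Figure D4:**
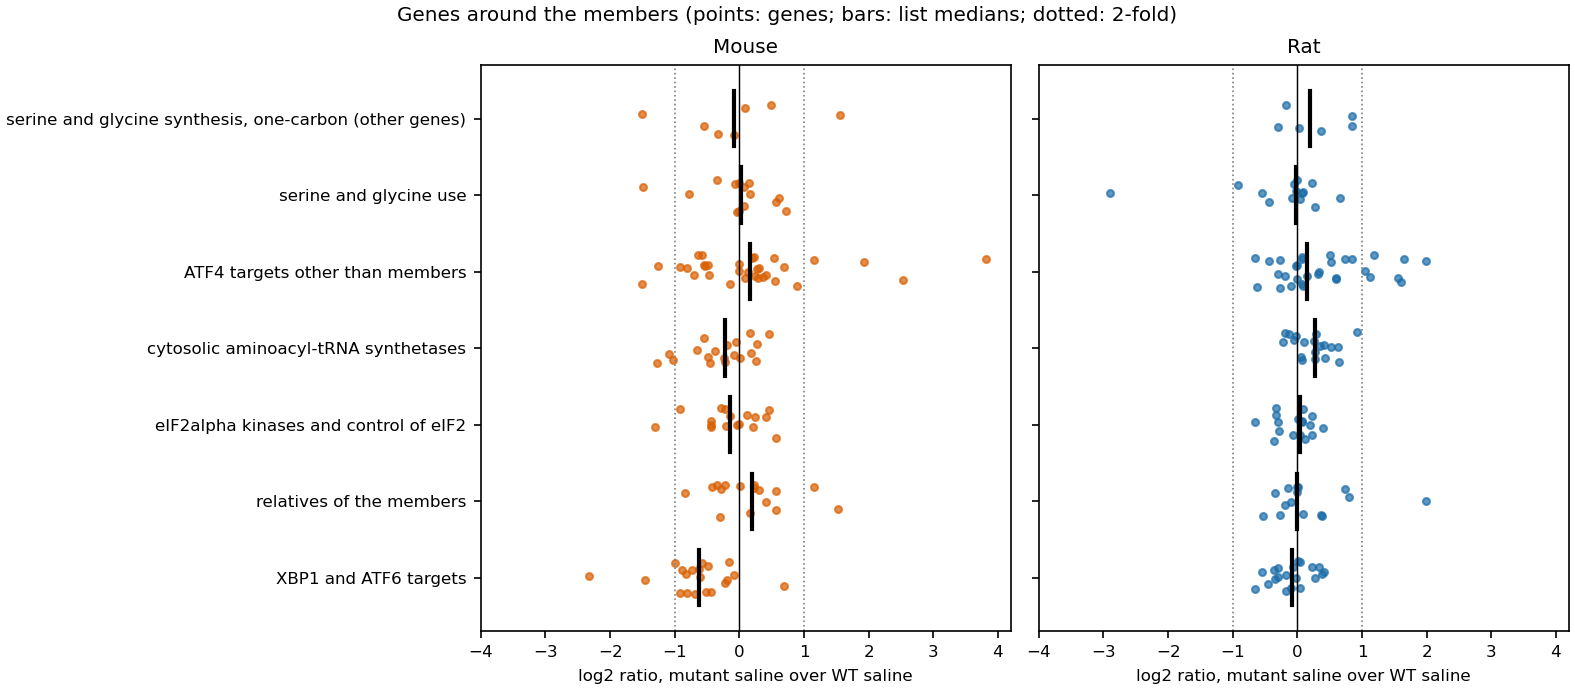
Log2 ratios of mutant saline over WT saline for the gene lists around the 8 genes, which themselves are left out, in mice (left) and rats (right), with points for genes, black bars for list medians and dotted lines at 2-fold. The XBP1 and ATF6 targets lie mostly left of 0 in mice (median -0.62) and around 0 in rats (median -0.09), and the lowest rat point is Sds at -2.89.

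Genes of the other arms of the unfolded protein response, which XBP1 and ATF6 control, were mostly lower in mutant mice and near 0 in mutant rats. In mice, 19 of 20 had ratios below 0 in saline-injected mutants relative to WT, with a median of -0.62 and Sdf2l1 and Pdia6 5.02-fold and 2.76-fold lower. With median-centred arrays the median was -0.36. In rats the median was -0.09, with 0 of 20 at 2-fold. With leptin against saline, 18 of 20 were above 0 in mice and 19 of 20 in rats, with medians of 0.23 and 0.22 and 0 at 2-fold in either species. The saline-injected mutant array enters these ratios and the genotype ratios, so a reversal by leptin cannot be read from them. The eIF2 kinases Eif2ak2, Eif2ak3 and Eif2ak4 differed by less than 1.5-fold between saline-injected mutant and WT in both species. The heme-regulated kinase Eif2ak1 was 2.47-fold lower in mutant mice on its brightest probe set, with other probe sets at log2 ratios of -0.32 and -0.03, and 1.28-fold lower in mutant rats. Among relatives of the transcription factors and of Trib3, Cebpd was 2.89-fold higher in saline-injected mutant mice than in WT mice, with another probe set at -0.06. The Trib3 paralog Trib1 was 1.78-fold lower in saline-injected mutant mice and 1.28-fold higher in saline-injected mutant rats.

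For the 6 genes that differed by 2-fold or more between arrays of a species, the genes most like them in pattern over all 6 arrays were sought among 8462 genes measured in both species. The measure was the root mean square difference of log2 signal after values below the floor were set to it and each gene was centred within a species. Nearest to Psat1 were Ltb (0.42), Timp1 (0.43) and Asns (0.47). For Asns they were Wfdc21 (0.27), Cxcl1 (0.335) and Tubb6 (0.35), and for Phgdh Rhbdf2 (0.19), Shtn1 (0.21) and Nav2 (0.22). Nearest to Trib3 was the kinase gene Mknk2 at 0.04, followed by Gpr137b (0.09) and Anxa1 (0.10). In rats Mknk2 had signals of 1719.5 and 2377.7 in leptin- and saline-injected mutants, against 802.7 in WT, and in mice 6508.5 and 5980.6, against 2490.2. Psph was nearest to Zfyve19 (0.02), Trim47 (0.05) and Tap2 (0.06), and Atf5 to Rhno1 (0.03), Aig1 (0.05) and Igfbp3 (0.06). Zfyve19 was at 56.3 in WT rats, under the floor, so its likeness to Psph rests on the raised value. Ltb, Timp1, Rhbdf2, Tubb6 and Gpr137b each had a signal under the floor on some array as well. Phgdh itself was at 5.8 in WT rats and Psat1 at 37.6 in WT mice, both under the floor. All likenesses to Phgdh and Psat1 thus rest in part on raised values. With 6 arrays, many genes share a pattern of small differences, and the likeness is a description.

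Markers of cell types differed with genotype, and some with leptin. The leptin and genotype ratios share the saline-injected mutant array, so opposite signs in them are not read as a reversal. All measured hepatocyte markers, 10 in mice and 11 in rats, were above the floor on every array of their species. In rats 11 of 11 were lower in saline-injected mutants than in WT (median log2 -0.16), with Tat 6.94-fold lower at 849.7 against 5897.2, and 11 of 11 were higher with leptin than with saline (median 0.11). In mice 8 of 10 were lower in saline-injected mutants than in WT (median -0.33), with 0 at 2-fold. Their sums were 304000 and 296000 in leptin- and saline-injected mutants, against 371000 in WT. These marker values are as deposited, and median centring moved the median log2 ratio of all genes in this mouse comparison from -0.03 to 0.22.

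In rats the summed signal of 8 stellate cell and matrix markers was 8460 and 8220 in leptin- and saline-injected mutants, against 2580 in WT rats, and that of 9 macrophage markers 17600 on both mutant arrays, against 12700 in WT. In mice the sums were 18600 and 18700 against 11000 for the 8 stellate and matrix markers and 18400 and 19700 against 14400 for 10 macrophage markers. Brighter probe sets weigh more in such sums, and mouse Dcn alone was at 12808.7 in saline-injected mutants, against 7316.1 in WT. With saline, 6 of the 8 stellate and matrix markers were higher than in WT in mice and 7 in rats. Of the macrophage markers 7 of 10 were higher in mice, with Cd163 2.11-fold lower, and 7 of 9 in rats. Bile duct markers, 4 in each species, summed in rats to 966 and 934 in the mutants, against 491 in WT, and in mice to 296 and 268 in the mutants, against 528 in WT. Krt7 was under the floor on all arrays. In mice 0 of the 4 reached the floor in saline-injected mutants and 1 in leptin-injected mutants, against 3 in WT. The sums of the mutant mice are thus mostly of signals under the floor.

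Of 6 measured markers of dividing cells in rats, 5 were higher in saline-injected mutants than in WT (median log2 0.85), and 5 were lower with leptin than with saline (median -0.93). Both ratios share the saline-injected mutant array, so a reversal by leptin cannot be read from them. Cdk1 was 2.33-fold lower with leptin, at 117.5 against 274.1. Several of these rat ratios are bounds near the floor: Ccnb1, Cdk1 and Mki67 were under it in WT rats (77.2, 70.7 and 51.0). Ccnb1 and Mki67 were also under it in leptin-injected rats (64.8 and 82.8). In mice the medians of the dividing cell markers were 0.13 for mutant saline over WT saline and 0.03 for leptin over saline. Of the 4 adipocyte markers in mice, the lipid droplet gene Cidec carried the signal, with 2808.0 and 3144.2 in leptin- and saline-injected mutants, against 32.6 in WT, while Adipoq, Lep and Retn were under the floor on all arrays. Lep was under the floor on all rat arrays too, so its signal does not check the genotypes.

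Pancreas and kidney express serine synthesis enzymes. Of 8 pancreatic acinar markers in rats, Cel, Cela2a, Ctrb1, Pnlip and Prss1 were under the floor on all arrays. Cpa1 was lower in saline-injected mutant rats than in WT rats, at 299.2 against 2947.9, whereas Cela1 was higher at 391.2 against 249.4, and so was Cpb1 at 127.5 against 63.3. In mice Cela2a, Cpa1, Cpb1 and Ctrb1 were under the floor on all arrays, and Cela1 was lower at 982.2 in saline-injected mutants, against 4423.2 in WT. Of 5 kidney markers, Kap, Slc12a1, Slc34a1 and Umod were under the floor on all rat arrays. The remaining one, Lrp2, was above it on all rat arrays, at 405.0 and 409.4 in leptin- and saline-injected mutants, against 348.0 in WT. In mice Slc12a1, Slc34a1 and Umod were under the floor on all arrays. Mouse Kap was at 114.7 and Lrp2 at 97.1 in saline-injected mutants, against 79.3 and 75.5 in WT, both under the floor. The part of these cells in the ratios of the 8 genes was not tested.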

How the data were processed

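Per the labels, Trizol was used to extract total RNA from liver, and each group was run on 1 Affymetrix array. The deposited values are linear signal intensities. MAS5 is the tool named by the submitters' processing notes, without a version. Each array's mean intensity, with 2% of values left out at each end, was 496 or 497, while medians were 77.0 to 91.9 in mice and 93.6 to 99.3 in rats.

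Symbols came from the platform annotation and, in mice, were updated through gene identifiers to GRCm38.p6 (34741 of 34945 probe sets with 1 symbol). Only probe sets with 1 symbol were used. Of several probe sets for a gene, the one with the highest mean signal stood for it. A gene was compared where 1 or both of the arrays reached the floor, and log2 ratios were taken after values below the floor had been set to it. No replicates exist, so no test was made. From each list, up to 4 genes past 2-fold were named per direction and comparison, or up to 2 by size of ratio where none was past it. Paralogs, eIF2 kinases, Shmt1, Shmt2, Chac1, rat Cbs and single cell type markers were named after their values were seen. The 8 genes and all lists were chosen with earlier results of these data known. The calculations, in Python 3.11.15 with pandas 2.3.3 and scipy 1.17.1, were tested on simulated data. The changes put into these data were on genes well above the floor, so ratios near the floor were not covered. The alternatives tried were quantile normalization, centring on array medians, a floor at percentile 25 or 75, a gene's median over its probe sets, omission of probe sets ending in _x_at or _s_at, and a threshold of 1.5-fold.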

Additional observations from a re-analysis of the deposited data

Results flagged for a closer look

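For 4 of the 8 genes the log2 ratio of mutant saline over WT saline had opposite signs in rats and mice, which was not tested. The rat minus mouse difference was 3.36 for Asns (2.87 in rats, -0.49 in mice), 1.62 for Phgdh (1.31 in rats, a bound, and -0.31 in mice), 1.48 for Psph (1.09 and -0.39) and 0.78 for Atf4 (0.40 and -0.37). The mouse ratios of Phgdh, Psph and Atf4 and the rat ratio of Atf4 were within the probe set SD of 0.43. For mutant leptin over mutant saline the signs were opposite, again untested, for Phgdh with a rat minus mouse difference of 1.04 (1.00 in rats, -0.03 in mice), Trib3 with -0.61 (-0.39 and 0.22), Atf5 with -0.35 (-0.10 and 0.25) and Ddit3 with 0.37 (0.17 and -0.20). Of these, the mouse probe sets of Trib3 and of Ddit3 disagreed in sign in that comparison. The mouse ratios of Phgdh, Trib3 and Ddit3 and the rat ratios of Atf5 and Ddit3 were within the probe set SD of 0.24.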

How the results depend on the processing

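Of 272 alternative values of the log2 ratios of the 8 genes, 255 moved by less than the probe set SD and 2 changed sign, both for leptin in mice: Ddit3 (0.09 as the median of its probe sets) and Trib3 (-0.09 without probe sets ending in _x_at or _s_at). Of 83 alternative values of ratios called at 2-fold, 72 stayed there and 0 took the opposite sign. The calls lost were mouse Atf5 for leptin mutant over WT with quantile normalization (log2 0.98), rat Trib3 in the same comparison as the median of its probe sets (0.91) or without those endings (0.97), and 8 ratios with a floor at percentile 75, which raises more values: mouse Trib3 (0.70 for mutant saline and 0.92 for mutant leptin over WT), rat Psph (0.25 and 0.35 for the same), rat Asns (0.92 for mutant saline over WT), rat Trib3 (0.92 for mutant leptin over WT) and rat Phgdh (0.09 for mutant leptin over mutant saline and over WT). Rat Phgdh for mutant saline over WT had no value with that floor, since both arrays were under it, so this call was lost as well. Quantile normalization gave 2 of the 8 genes higher at 2-fold in mice for mutant saline over WT and 1 for mutant leptin over WT. Median centring in mice gave 962 higher and 235 lower genes for mutant saline over WT, 3 of the 8 among the higher, and 767 and 235 for mutant leptin over WT. A floor at percentile 25 gave, as higher and lower genes in mice, 984 and 1341 for mutant saline over WT (2 of the 8 higher), 408 and 436 for leptin over saline, and 922 and 1318 for mutant leptin over WT. In rats it gave 694 and 453, 211 and 296, and 631 and 520 in the same order of comparisons. With a floor at percentile 75, Psat1, Phgdh and Asns had no value in mice, which left 5 of the 8. This floor gave in mice 267 and 198 (0 of the 5 higher), 5 and 4, and 231 and 182 (1 of the 5 higher). In rats it gave 112 and 74 (2 of the 8 higher), 8 and 5 (0 of the 8), and 113 and 73 (2 of the 8). The median over probe sets gave 43 higher and 48 lower genes for leptin in mice and 39 and 42 in rats, and in rats 226 lower genes for mutant saline and 244 for mutant leptin over WT. A 1.5-fold threshold gave in mice 1469 and 1501 (4 of the 8 higher), 252 and 255 (1 of the 8), and 1360 and 1396, and in rats 999 and 581, 206 and 251, and 1006 and 667. The threshold itself makes these larger, and for the other settings the cause was not tested. No paired analysis was possible because each group was 1 array, for which reason no replicate could be left out either. Signals near the floor, as for Psat1, Phgdh and Asns in mice and in WT rats, limit the precision of their ratios.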
